A study of Mus musculus with 94 samples.

Results

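Lymphoid organs are laid out by a small set of chemokines and the receptors that read them, and 9 of these genes were followed here: the ligands Ccl21a, Ccl21b, Ccl19, Cxcl13, Cxcl12 and Ccl25 and the receptors Ccr7, Cxcr5 and Cxcr4. The members were taken by gene symbol, and every probe that the platform table gives to one of them was used, which made 16 of the 25697 probes and 9 of the 16593 genes named on the array. Ccl21a, Ccl21b, Ccl19, Cxcl13, Ccr7 and Cxcr4 had 1 probe each, Ccl25 had 2, Cxcr5 had 3 and Cxcl12 had 5.

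The arrays held total RNA of whole brain, liver, spleen and thymus of male C57BL/6N mice aged 17 weeks. There were 3 lines, with mice described as homozygous for a mutation of Hmgn1, Hmgn3 or Hmgn5 and wild types of the same line. These genes encode nucleosome-binding high mobility group N proteins, and the question was how the mutants differ from wild types. Each of the 24 groups had 4 mice, 1 array per mouse and tissue, except for 3 wild-type livers in each of the Hmgn1 and Hmgn5 lines, which gave 94 arrays of 24 mice. The labels name the line of a mutant but not of a wild type. Wild types were placed by mouse numbers in the same run as those of the labelled mutants, except for wild type 3 of the Hmgn5 line in brain, spleen and thymus, which was placed by elimination, so its line is uncertain. The labels used here do not give the kind of mutation or the cells in which it acts. In bulk tissue, fewer cells of a type and less RNA per cell cannot be told apart.

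CCL21 and CCL19 are the ligands of the receptor CCR7, which guides T cells and mature dendritic cells into the T zone of spleen and lymph nodes and guides thymocytes from the thymic cortex to the medulla. CXCL13, made by follicular stroma, draws CXCR5-bearing B cells into follicles. CXCL12 acts on CXCR4 and holds blood progenitors, plasma cells and early thymocytes in their niches, and CCL25, made by thymic epithelium, attracts thymocytes through CCR9. Expression of Ccl21, Ccl19 and Cxcl13 by lymphoid stroma depends in large part on lymphotoxin and the non-canonical NF-kB pathway.

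On the mouse assembly GRCm38.p6, the RefSeq gene table places Ccl21a at chr4:42772860-42773991 and Ccl19 at chr4:42754525-42756365, next to each other, and Ccl21b at chr4:42173120-42256825. Cxcl13 lies at chr5:95956939-95961068, Cxcl12 at chr6:117168535-117181368 and Ccl25 at chr8:4325205-4360020. The receptor genes lie at chr11:99144199-99155077 (Ccr7), chr9:44511787-44526444 (Cxcr5) and chr1:128588199-128592299 (Cxcr4). Ccl21a and Ccl21b are near-identical copies, as is Ccl21c, which has a probe of its own and is no member. The probes of such copies can bind each other's RNA, so their values are uncertain as readings of a single copy.

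Promoter sequence is shown for the 4 members whose mutant arrays moved in spleen or thymus and for which the RefSeq promoter table has an entry, so that the genes that lay lower can be set beside one that lay higher. Each run is the 250 bases before the annotated start, 5′ to 3′ on the gene's own strand, from RefSeq on GRCm38.p6. Capitals mark matches to an NF-kB-like motif, which is GGG and CC with any 5 bases between them on either strand, and to TATAAA on the gene's strand, and the searched motifs share no letters here. Ccl21a is chr4:42773992-42774241 on the minus strand, Ccl21b chr4:42172870-42173119 on the plus strand, Cxcl13 chr5:95956689-95956938 on the plus strand and Cxcr4 chr1:128592300-128592549 on the minus strand.
Ccl21a: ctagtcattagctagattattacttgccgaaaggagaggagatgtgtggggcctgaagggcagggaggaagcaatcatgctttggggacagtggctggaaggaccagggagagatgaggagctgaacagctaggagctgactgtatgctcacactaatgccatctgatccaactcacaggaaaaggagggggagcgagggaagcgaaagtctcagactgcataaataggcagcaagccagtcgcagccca
Ccl21b: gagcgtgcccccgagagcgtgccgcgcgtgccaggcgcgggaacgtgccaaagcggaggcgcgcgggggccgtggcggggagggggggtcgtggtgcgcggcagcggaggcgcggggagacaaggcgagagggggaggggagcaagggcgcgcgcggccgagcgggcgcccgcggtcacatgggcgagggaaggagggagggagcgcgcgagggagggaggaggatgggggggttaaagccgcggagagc
Cxcl13: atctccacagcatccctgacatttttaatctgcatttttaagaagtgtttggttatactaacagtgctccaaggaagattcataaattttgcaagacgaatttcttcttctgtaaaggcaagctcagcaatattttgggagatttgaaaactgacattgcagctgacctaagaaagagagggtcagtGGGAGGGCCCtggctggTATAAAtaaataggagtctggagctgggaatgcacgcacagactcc
Cxcr4: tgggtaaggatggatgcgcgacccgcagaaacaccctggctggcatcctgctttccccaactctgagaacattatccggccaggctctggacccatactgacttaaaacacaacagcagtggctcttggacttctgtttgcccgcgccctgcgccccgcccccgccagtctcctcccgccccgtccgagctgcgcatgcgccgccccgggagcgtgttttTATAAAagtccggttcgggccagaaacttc
The Cxcl13 window held 1 NF-kB-like match, whose first base lay 63 bases before the start, and 1 TATAAA, 46 bases before it. The Cxcr4 window held TATAAA 30 bases before the start and no NF-kB-like match. Neither motif occurred in the windows of Ccl21a and Ccl21b, which differ from each other in composition, with 52.8% and 78% G and C. The annotated span of Ccl21b is far longer than that of Ccl21a, although the genes are near-identical copies. The Ccl21b window may therefore not be the counterpart of the Ccl21a window, and their difference cannot be read as one between matching promoters. Of all 32841 promoter windows of this length, 45.8% held the NF-kB-like motif and 7.59% held TATAAA, so a match is common for the first. Of the other members, Ccl19 and Cxcl12 each held 1 NF-kB-like match, and the windows of both starts of Ccl25 held none.

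Values are the deposited normalized intensities, background-subtracted by the authors, so that a value can lie below 0. A probe counts as above noise when it exceeds a fixed multiple of the scatter of the array's negative values, a limit of 2.45 to 11.0 over the arrays. Between 12245 and 16430 probes lay above noise on an array, and the number of arrays limited the precision. A change is the labelled mutants' mean less that of the wild types after taking log2(intensity + 16), which understates the change of dim probes, and SE is its standard error. The adjusted p comes from limma, with the Benjamini-Hochberg method over every tested probe, and a change passed below 0.05. Nothing in the labels used here ties the mice of a group to separate litters or matings. The targeted gene checked the labels in part: both Hmgn3 probes fell in the Hmgn3 line in brain, spleen and thymus (-1.70 and -1.78 in spleen), and in the Hmgn5 line the Hmgn5 probe fell in thymus (-1.08) but rose in liver (0.59). The Hmgn1 probe passed in no tissue of the Hmgn1 line (-0.23 in brain, 0.10 in liver, -0.11 in spleen, -0.41 in thymus). Because of this the mice are called labelled mutants, and where the probes lie relative to the mutated stretch is not stated in the labels. The tissue labels matched their markers. Of brain genes 3 of 4 were above noise on all wild-type brain arrays, and of liver genes 5 of 5 in liver. In spleen this held for 7 of 8 B cell genes, and in thymus for 6 of 6 immature thymocyte genes. Of thymic epithelium genes only 5 of 10 were above noise on all wild-type thymus arrays, so that list holds dim genes.

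To compare tissues, the 46 wild-type arrays of 12 mice were put on 1 scale by quantile normalization, since the deposited values were normalized apart for each line and tissue. On that scale most members stood far higher in spleen than in brain or liver. In spleen minus brain 12 of 16 probes were higher and 2 lower, against 34.4% and 30.5% of the 22714 probes tested, and the members' median difference was 3.39 against 0.08 over all probes. In spleen minus liver 11 were higher and 2 lower (all probes: 31% and 29.5%), with a median of 2.90 against 0.01. In thymus minus brain 14 were higher and 0 lower (36.2% and 29.2%), with a median of 1.85 against 0.09. In thymus minus liver 11 were higher and 1 lower (31.8% and 29.3%), with a median of 0.62 against 0.01. Between the lymphoid organs 11 probes were higher in spleen and 3 in thymus (19.5% and 23.4%), with a median of 1.44 against -0.01 for spleen minus thymus.

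**Figure D1:**
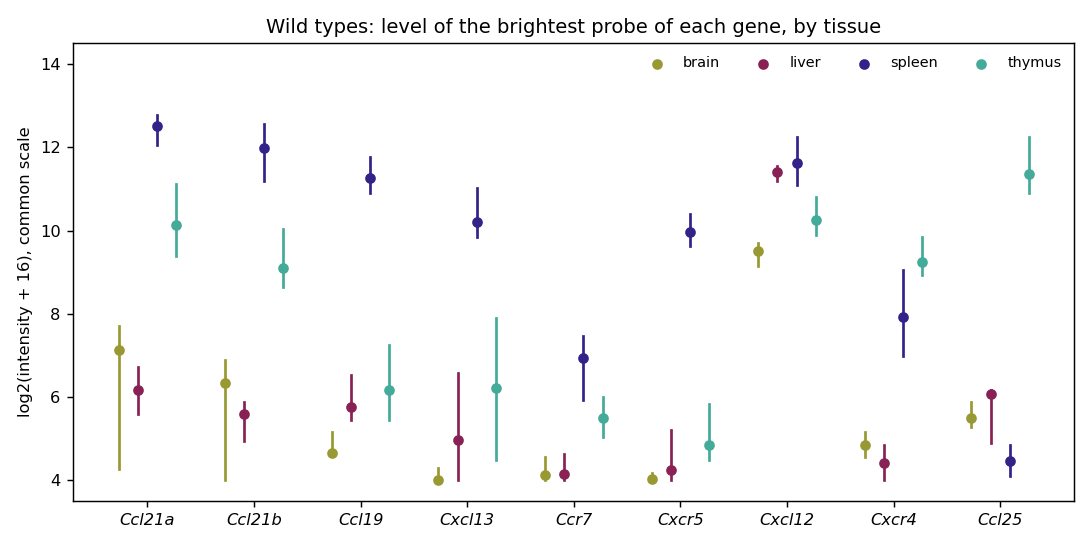
Level of the brightest probe of each gene in wild types on the common scale, as log2(intensity + 16), for brain, liver, spleen and thymus. Points are medians and lines run from the lowest to the highest of 12 arrays (10 in liver). Ccl21a, Ccl21b, Ccl19, Cxcl13 and Cxcr5 stand highest in spleen, Ccl25 and Cxcr4 in thymus, and Cxcl12 is high in every tissue.

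The CCL21 genes, which encode CCR7 ligands, were spleen genes with a second, lower level in thymus. Ccl21a read 5723 ± 868 in spleen (SD, n = 12), with a lowest, median and highest array of 4276, 5793 and 6974, and 1167 ± 423 in thymus (651, 1111 and 2193). It read 104 ± 75.9 in brain (3.16, 124 and 194) and 56.8 ± 17.9 in liver (n = 10; 32.3, 55.7 and 89.9). Every spleen array lay above every thymus array, and every thymus array above every brain and liver array, while brain and liver overlapped. The difference was 6.02 (SE 0.30) in spleen minus brain, 3.68 (SE 0.30) in thymus minus brain and 2.34 (SE 0.30) in spleen minus thymus, and all passed. Ccl21b kept the same order, at 4214 ± 979, 600 ± 208, 53.3 ± 39.5 and 31.95 ± 7.32.

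Ccl19, the other CCR7 ligand, was more restricted to spleen. It read 2578 ± 490 there (1888, 2433 and 3497) and 67.6 ± 34.7 in thymus (27.8, 55.2 and 135), 45.4 ± 16.8 in liver and 10.8 ± 3.86 in brain. Spleen stood apart from all other tissues, with a difference of 5.04 (SE 0.16) from thymus. Thymus and liver overlapped, although the difference of 0.39 passed (adjusted p = 0.0362). That call was lost on leaving out any of 6 of the 12 mice (adjusted p from 0.0136 to 0.152 over the 12 fits), with a floor of 1 before log2 (0.0515) and with values as deposited (0.530), and in wild types of the Hmgn3 line alone the difference was -0.23.

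Cxcl13, the follicle chemokine, read 1268 ± 356 in spleen (905, 1162 and 2058) and 70.2 ± 56.2 in thymus (6.38, 58.2 and 223). In brain 0 of 12 arrays were above noise, and in liver 7 of 10 were, with a mean of 18.5 ± 23.7. Spleen overlapped no other tissue, and it was at least 58.7-fold higher than brain and 4.09 (SE 0.22) higher on the log2 scale than thymus. Its receptor gene Cxcr5 followed: the probe ILMN_2990502 read 993 ± 179 in spleen (770, 981 and 1343) and 17.2 ± 11.5 in thymus, and was at least 46.9-fold higher in spleen than in brain. The probes ILMN_2990494 (418 ± 112 in spleen) and ILMN_1219316 (134 ± 34.8) also had their highest level in spleen.

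Ccr7, the receptor of both CCL21 and CCL19, read 105 ± 30 in spleen (44.5, 107 and 162) and 29.6 ± 9.90 in thymus (16.6, 28.7 and 47.6). It was above noise on 1 of 12 brain and 2 of 10 liver arrays. Spleen and thymus overlapped, with a difference of 1.40 (SE 0.12) that passed, and both lay above brain and liver.

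Cxcr4 and Ccl25 had the opposite order of the lymphoid organs. Cxcr4 read 625 ± 128 in thymus (469, 586 and 910) and 256 ± 130 in spleen (110, 227 and 517), against 13.2 ± 3.78 in brain and 5.63 ± 5.19 in liver. Thymus and spleen overlapped, with a difference of -1.35 (SE 0.13) for spleen minus thymus that passed. Ccl25 read 2877 ± 950 in thymus by ILMN_2661722 (1913, 2603 and 4856) and was above noise on only 6 of 12 spleen arrays (6.20 ± 4.59). ILMN_2942353 read 1227 ± 681 in thymus and was also above noise on 6 of 12 spleen arrays (7.81 ± 7.31). Thymus minus brain was 5.91 (SE 0.11) and 3.34 (SE 0.18) for these probes, and no thymus array overlapped with another tissue. Both probes were lower in spleen than in thymus, liver and brain by the test, but spleen lies too near noise for the size of these differences to be read.

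Cxcl12, the ligand of CXCR4, read high in liver as well as in spleen. Its brightest probe, ILMN_2658908, read 3203 ± 819 in spleen, 2675 ± 222 in liver, 1256 ± 256 in thymus and 711 ± 73.7 in brain. Spleen and liver overlapped and did not pass (difference 0.22, adjusted p = 0.0791), although leaving out either of 2 mice made the difference pass (0.26, adjusted p = 0.0427 and 0.0307), while thymus was lower than liver (-1.11, SE 0.11). The probes ILMN_2737302 and ILMN_3158250 were higher in spleen than in liver (1.499 and 1.89). The first of these calls was lost with values as deposited (0.31, adjusted p = 0.344) and in wild types of the Hmgn5 line alone (1.10, adjusted p = 0.186). The probes ILMN_2746295 and ILMN_3078973 lay at or near noise everywhere and carry no level. The common scale matters for this gene: with values as deposited the median of all probes shifted to -0.99 in spleen minus brain, -0.23 in spleen minus liver, -0.71 in thymus minus brain, -0.08 in thymus minus liver and -0.14 in spleen minus thymus. The share of all probes called higher or lower then moved to 7.6% and 72.6%, 14.1% and 48.5%, 10.7% and 66.7%, 22% and 38.5%, and 8.22% and 37.3% in the same order. ILMN_2658908 then read -0.32 in spleen minus brain, -1.78 in spleen minus liver and -1.01 in thymus minus brain.

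In spleen the labelled mutants differed from wild types of their line in Cxcl13 and Cxcr4 and, in the mean of the 3 lines, also in Cxcr5 and Ccr7, while the T-zone ligands passed nowhere. Of 16 probes 14 were tested. In the Hmgn1 line 2 passed, Cxcl13 lower and Cxcr4 higher, against 3.08% of all probes, in the Hmgn3 line 0 of 14 (limma; 5 at an unadjusted p under 0.05), against 2.06%, and in the Hmgn5 line 1, Cxcl13 lower, against 0.9%. The median change of the tested members was -0.12, -0.07 and -0.13, against 0.0063, 0.0066 and 0.0039 over all probes.

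Cxcl13 lay lower in the labelled mutants of all 3 lines. In the Hmgn1 line the wild types read 894, 968, 523 and 507 and the labelled mutants 611, 317, 302 and 243. Only the highest labelled mutant lay within the wild-type range, and the change was -0.97 (SE 0.24, adjusted p = 0.0310). The Hmgn3 wild types read 446, 391, 380 and 337 and the labelled mutants 264, 198, 202 and 151. The groups did not overlap, and the change of -0.90 (SE 0.24) fell just short of the threshold (adjusted p = 0.0500298). It passed with the replicate block (0.00363), array weights (0.0285), the stricter filter on dim probes (0.0358) and the line fitted alone (0.0355). The Hmgn5 wild types read 408, 346, 309 and 272 and the labelled mutants 202, 185, 116 and 109. The groups again did not overlap, and the change was -1.08 (SE 0.24, adjusted p = 0.0320). A test for a difference between the lines did not pass (adjusted p = 0.999).

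The single calls were not stable to the loss of 1 array. In the Hmgn1 line the Cxcl13 call was lost without wild type 1 or 2 or labelled mutant 2, 3 or 4, with adjusted p-values from 0.00289 to 0.135 over the 8 fits and changes from -1.23 to -0.81. For the Hmgn5 line it was lost without wild type 1, 2 or 3 or labelled mutant 2, 3 or 4 (adjusted p from 0.0230 to 0.123; -1.11 and 0.0532 without wild type 3, the mouse placed by elimination), and in the Hmgn3 line it was gained in 2 of 8 fits (0.0251 to 0.163). The mean of the 3 lines, a comparison added after the data were seen, had a change of -0.98 (SE 0.14, adjusted p = 7.35e-05), and its adjusted p stayed between 5.96e-06 and 0.000211 on leaving out any of the 24 arrays. When the replicate number was entered as a linear covariate, with wild types as 1 to 4 and labelled mutants as 5 to 8, the mean became 0.05 and no member passed in spleen. Number and genotype are tied in that numbering by construction. Within every group of the 3 lines the lowest Cxcl13 value was that of replicate 4, so Cxcl13 also fell along the number inside both genotypes. Cxcr5 by ILMN_2990502, given below, was highest in replicate 1 within every group. The cause of the Cxcl13 reversal was not tested. Ccr7 and Cxcr4 kept their direction in that fit, at 0.44 and 0.52 in the mean of the 3 lines.

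Cxcr5, the receptor of CXCL13 on B cells, lay lower in each line and did not pass in any. By ILMN_2990502 the wild types of the Hmgn3 line read 436, 373, 318 and 323 and the labelled mutants 306, 291, 264 and 231. These groups did not overlap (change -0.39, adjusted p = 0.272). In the Hmgn1 line the wild types read 539, 440, 447 and 416 and the labelled mutants 479, 276, 281 and 233, and in the Hmgn5 line 365, 300, 241 and 231 against 236, 160, 196 and 165. In both lines 1 labelled mutant reached into the wild-type range, with changes of -0.56 (adjusted p = 0.0697) and -0.54 (adjusted p = 0.109). The probe did pass in the Hmgn1 line with array weights (adjusted p = 0.0280), with the replicate block (0.0112) and without labelled mutant 1 (-0.77, 0.00414), and with the block it also passed in the Hmgn5 line (0.0217). In the mean of the 3 lines the probe was lower by -0.50 (SE 0.10, adjusted p = 0.00114). The other Cxcr5 probes were lower in each line as well, by -0.42 to -0.11, and did not pass in the mean (-0.25, adjusted p = 0.0662, and -0.28, adjusted p = 0.154). The first of these, ILMN_1219316, did pass in the mean with the stricter filter (0.0490), with array weights (0.0220) and in 4 of 24 fits without 1 array (adjusted p from 0.00408 to 0.126). Without wild type 4 it also passed in the Hmgn5 line (-0.60, adjusted p = 0.0268).

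Ccr7 lay higher by nearly the same amount in each line, 0.50, 0.48 and 0.47 (SE 0.16 each). The Hmgn1 wild types read 39.4, 78.4, 60.8 and 52.0 and the labelled mutants 80.6, 88.5, 85.2 and 90.8, without overlap. The Hmgn3 wild types read 41.6, 30.9, 23.3 and 30.3 and the labelled mutants 49.4, 53.3, 42.8 and 53.3, again without overlap. In the Hmgn5 line 11.3, 28.5, 25.9 and 23.9 stood against 37.2, 35.0, 51.0 and 24.9, and 1 labelled mutant lay among the wild types. The adjusted p-values were 0.0817, 0.115 and 0.142, and in the mean of the 3 lines the gene passed (0.48, SE 0.09, adjusted p = 0.000812).

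Cxcr4, the receptor of CXCL12, was higher in the Hmgn1 line, where the wild types read 72.5, 119, 106 and 227 and the labelled mutants 248, 258, 162 and 281. The groups overlapped at 1 wild type, and the change was 0.86 (SE 0.23, adjusted p = 0.0428). This call was lost without wild type 1, 2 or 3 or labelled mutant 2, 3 or 4 (adjusted p from 0.0103 to 0.192). Among Hmgn3 mice 39.9, 38.9, 60.5 and 31.6 stood against 69.7, 93.6, 72.4 and 96.8, without overlap, and the change of 0.77 did not pass (adjusted p = 0.0829), but it passed with the replicate block (0.0374) and with the line fitted alone (0.0484). Hmgn5 groups overlapped, at 105 ± 34.3 and 127 ± 26.6 (n = 4 each, change 0.25, adjusted p = 0.717). In the mean of the 3 lines the change was 0.63 (SE 0.13, adjusted p = 0.00207).

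**Figure D2:**
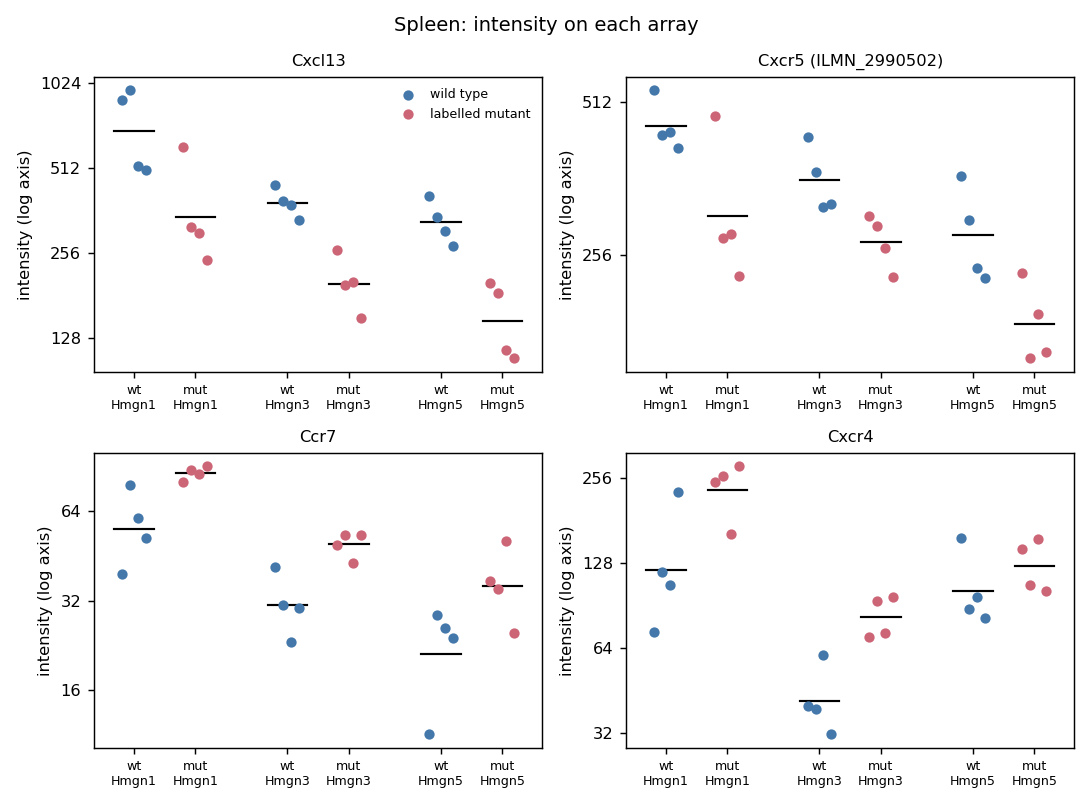
Spleen intensity on each array (log axis) of Cxcl13, Cxcr5, Ccr7 and Cxcr4, with wild types in blue, labelled mutants in red and a line at the mean on the log scale of the 4 arrays of a group. Levels can be compared only within a line. Cxcl13 is lower in the labelled mutants of each line, without overlap in the Hmgn3 and Hmgn5 lines, and Ccr7 is higher, without overlap in the Hmgn1 and Hmgn3 lines.

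Counted over the members, groups did not overlap with labelled mutants higher for 1 probe in the Hmgn1 line (4.76% of all probes) and 2 in the Hmgn3 line (3.78%), and with labelled mutants lower for 2 in the Hmgn3 line (3.98%) and 2 in the Hmgn5 line (3.77%). The second of these in the Hmgn5 line was the Cxcl12 probe ILMN_3158250, where 148, 128, 126 and 159 stood against 93.4, 113, 94.6 and 98.98 (-0.43, adjusted p = 0.588). In the mean of the 3 lines 4 of 14 probes passed, 2 higher and 2 lower, where 8.34% of all probes were higher and 8.92% lower.

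The T-zone ligands did not pass in spleen. Ccl21a was at 2513 ± 482 in Hmgn1 wild types and 2885 ± 393 in labelled mutants of that line, 1694 ± 190 and 2073 ± 260 in the Hmgn3 line, and 2273 ± 161 and 2251 ± 182 in the Hmgn5 line (n = 4 each). The groups overlapped in each line, and the largest change was 0.29 in the Hmgn3 line (SE 0.12, adjusted p = 0.255). Ccl21b changed by 0.23, 0.21 and -0.13 and Ccl19 by -0.16, -0.18 and -0.10, none of which passed. Cxcl12 did not pass by any of its 3 tested probes within a line or in the mean of the 3 lines. Labelled mutant 3 of the Hmgn3 line stood low on all 3, at 606, 64.6 and 33.2 where the other labelled mutants of that line read at least 1107, 197 and 213. In the mean of the 3 lines ILMN_3158250 (-0.45, adjusted p = 0.0837) passed with the replicate block (0.0420) and on leaving out any 1 labelled mutant of the Hmgn3 line. Without labelled mutant 3 its change was -0.26 (adjusted p = 0.00949), and without 1, 2 or 4 it was -0.51 to -0.50 (0.0452 to 0.0474). Ccl25 lay at or near noise in spleen.

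Cell type markers are given beside these changes because whole spleen was measured. The B cell list had a median change of -0.07, -0.01 and -0.06 over 8 tested genes in the Hmgn1, Hmgn3 and Hmgn5 lines, with 1 gene lower in the Hmgn1 line passing. The list of follicular dendritic and reticular stroma, cells that make CXCL13 and CCL21, had medians of 0.11, 0.16 and 0.09 over 9 genes, with 1 lower in the Hmgn1 line and 1 higher in the Hmgn5 line passing. T cell genes had medians of 0.18, 0.10 and 0.24 over 8 genes, with 1 higher passing in each of the Hmgn3 and Hmgn5 lines. The mean log2 level of the T cell list ran from 7.95 to 8.36 in wild types and 8.23 to 8.50 in labelled mutants of the Hmgn1 line, from 7.59 to 7.93 and 7.81 to 8.02 in the Hmgn3 line, and from 7.38 to 7.79 and 7.68 to 7.97 in the Hmgn5 line. That of the B cell list ran from 8.21 to 8.30 and 7.98 to 8.25, from 7.56 to 7.78 and 7.58 to 7.70, and from 7.44 to 7.70 and 7.39 to 7.56. Of glucocorticoid-induced genes 13 of 14 lay higher in the Hmgn1 line, 3 of them passing, and of heat shock genes 9 of 9, 1 passing. In the Hmgn3 line 9 of the 14 glucocorticoid-induced genes lay higher, 1 of them passing, and 5 of the 9 heat shock genes, none passing. For the Hmgn5 line these counts were 10 and 8, none passing. Fibroblast genes lay higher for 7, 4 and 8 of 8 in the 3 lines (medians 0.15, 0.01 and 0.38), with 1 higher passing in the Hmgn3 line. Macrophage genes lay higher for 2, 7 and 7 of 10 (medians -0.13, 0.24 and 0.08), with 1 lower passing in the Hmgn1 line and 1 higher and 1 lower in the Hmgn3 line. Neutrophil genes lay higher for 8, 0 and 6 of 9 (medians 0.23, -0.18 and 0.03), none passing. Fat cell genes lay higher for 3 of 3 in each line (medians 0.23, 0.22 and 0.54), and erythroid genes for 4, 1 and 1 of 5 (medians 0.22, -0.30 and -0.35), none passing. Dendritic cell genes had medians of 0.08, 0.01 and 0.04 over 8 genes, with 1 higher passing in the Hmgn3 line. Probes of 1 housekeeping gene, beta-actin, lay in opposite directions. Actb by ILMN_2588055 rose by 1.22, 1.05 and 1.72 in the 3 lines (adjusted p = 0.0211, 0.0390 and 0.00686). ILMN_2617433 gave -0.84, -1.11 and -0.98, none of which passed. The remaining tested Actb probes lay higher in each line. ILMN_2846865 gave 1.27, 1.12 and 1.60, passing in the Hmgn1 and Hmgn5 lines. ILMN_1377923 gave 0.40, 0.57 and 0.39, passing in the Hmgn3 line, and ILMN_2698799 gave 0.25, 0.27 and 0.27, none passing. The part of cell makeup, handling and RNA quality in the changes of Cxcl13, Cxcr5, Ccr7 and Cxcr4 was not tested.

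In thymus the CCL21 genes lay lower in the labelled mutants of each line and passed in the mean of the 3 lines. No member passed within a line in the fit as described above: 0 of 14 tested probes in the Hmgn1, Hmgn3 and Hmgn5 lines (limma; 3, 2 and 4 at an unadjusted p under 0.05), where 0.0494%, 0.011% and 0.0933% of all probes passed. The median change of the tested members was -0.01, -0.06 and -0.03, against -0.0013, -0.0099 and 0.0025 over all probes.

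Ccl21a read 872, 520, 786 and 568 in Hmgn1 wild types and 205, 304, 291 and 90.3 in labelled mutants. The groups did not overlap, with a change of -1.65 (SE 0.36, adjusted p = 0.0842). Hmgn3 mice read 444, 365, 226 and 266 against 261, 115, 103 and 57.5. Here 1 labelled mutant lay within the wild-type range, and the change was -1.31 (SE 0.36, adjusted p = 0.395). Among Hmgn5 mice 1586, 1145, 667 and 855 stood against 639, 345, 639 and 413. The groups did not overlap, and the change was -1.01 (SE 0.36, adjusted p = 0.317).

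Ccl21b moved with it, from 377 ± 106 to 109 ± 47.4 in the Hmgn1 line, from 187 ± 66.1 to 76.5 ± 43.1 in the Hmgn3 line and from 500 ± 216 to 238 ± 77.6 in the Hmgn5 line (n = 4 each). Its changes were -1.72 (adjusted p = 0.0730), -1.21 (adjusted p = 0.438) and -0.98 (adjusted p = 0.339), without overlap in the Hmgn1 and Hmgn3 lines. Under other settings the Hmgn1 line did pass: with array weights the adjusted p was 0.0452 for Ccl21a and 0.0281 for Ccl21b, and with the replicate block it was 0.0246 for Ccl21b. The Ccl21c probe gave -1.94, -1.15 and -1.02. Since these probes can read the same RNA, they are not separate evidence: over the 24 thymus arrays, with group means taken off, Ccl21a and Ccl21b correlated at r = 0.96.

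In the mean of the 3 lines, the comparison added after the data were seen, Ccl21a changed by -1.32 (SE 0.21) and Ccl21b by -1.31 (SE 0.20), both with an adjusted p of 0.00219. These were the 2 of 14 members that passed, both lower, where 0.856% of all probes were lower. On leaving out any of the 24 arrays the adjusted p stayed between 0.000708 and 0.00685 for Ccl21a and between 0.00113 and 0.00685 for Ccl21b. With the replicate number as a covariate, under the numbering given above for spleen, the mean became -0.16 for Ccl21a and -0.03 for Ccl21b, and neither passed. Replicate 1 had the highest Ccl21a value among the wild types of each line, but among labelled mutants only in the Hmgn3 line. The lines did not differ in the change of Ccl21a by the test of that difference (adjusted p = 0.993).

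**Figure D3:**
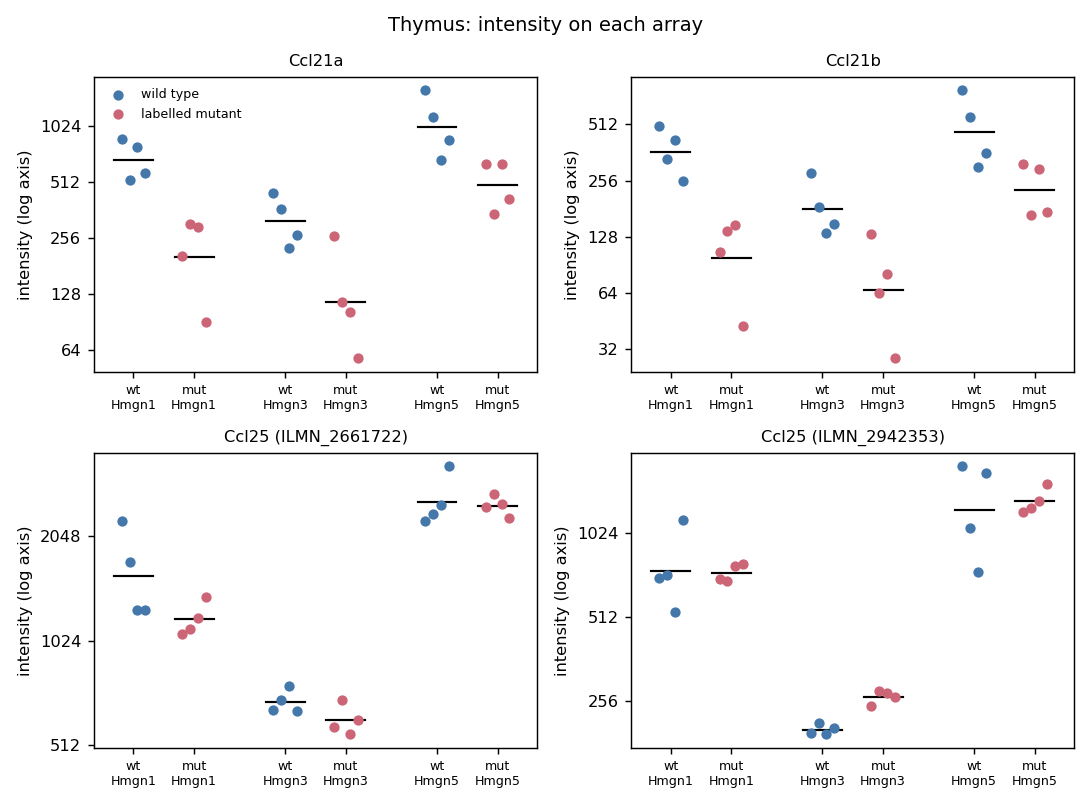
Thymus intensity on each array (log axis) of Ccl21a, Ccl21b and both Ccl25 probes, with wild types in blue, labelled mutants in red and a line at the mean on the log scale of the 4 arrays of a group. Levels can be compared only within a line. Ccl21a is lower in the labelled mutants of each line and overlaps with wild types in the Hmgn3 line only, while Ccl25 shows no shift shared by the lines.

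No other member passed in thymus. Ccl19 read 47.8 ± 24.9 and 26.8 ± 7.32 in the Hmgn1 line, 15.8 ± 4.91 and 12.7 ± 6.11 in the Hmgn3 line and 51.7 ± 33.4 and 26.3 ± 8.41 in the Hmgn5 line (n = 4 each), with overlap, and its mean change over the lines was -0.41 (adjusted p = 0.261). Ccr7 read 34.5, 12.2, 22.6 and 30.3 in Hmgn5 wild types and 4.07, 3.19, 19.8 and 14.1 in labelled mutants, which overlapped (-0.65, SE 0.19, adjusted p = 0.204). The Cxcr5 probe ILMN_2990494 changed by -0.46 in that line (adjusted p = 0.432), from 17.0 ± 3.89 to 9.20 ± 10.2. Ccl25, the thymic epithelial chemokine, read 2255, 1724, 1254 and 1257 against 1071, 1109, 1192 and 1366 in the Hmgn1 line by ILMN_2661722, with overlap (-0.41, adjusted p = 0.432). Its other probe gave -0.02 there, and in the Hmgn3 line it read 197, 215, 195 and 207 against 247, 278, 273 and 266, without overlap (0.36, adjusted p = 0.848), where the first probe gave -0.17. The Ccl25 probes thus differed in direction in the Hmgn3 line. Cxcr4 changed by 0.02, -0.10 and 0.01, and Cxcl13 by 0.57, 0.29 and -0.06, with overlap in each line. Cxcl12 by its brightest probe gave 0.02, -0.33 and 0.02, again with overlap. Its probe ILMN_2737302 had the largest positive change among the members in the Hmgn5 line, at 103, 169, 171 and 1.95 in wild types and 155, 155, 92.0 and 133 in labelled mutants (0.67, adjusted p = 0.687), where 1 wild type stood far below the rest.

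Groups did not overlap with labelled mutants lower for 2 members in the Hmgn1 line (3.32% of all probes), 1 in the Hmgn3 line (3.46%) and 1 in the Hmgn5 line (1.95%), all of them CCL21 probes, and with labelled mutants higher for 1 in the Hmgn3 line (1.87%). Genes of thymic epithelium, which makes CCL21 in the medulla, had median changes of -0.12, -0.16 and -0.25 over 10 tested genes in the Hmgn1, Hmgn3 and Hmgn5 lines, and none of them passed (limma). The mean log2 level of that list ran from 6.21 to 6.65 in wild types and 6.14 to 6.59 in labelled mutants of the Hmgn1 line, from 5.84 to 6.10 and 5.79 to 5.95 in the Hmgn3 line, and from 6.70 to 7.07 and 6.48 to 6.88 in the Hmgn5 line. T cell genes had medians of -0.05, -0.09 and -0.12. Of glucocorticoid-induced genes 13, 12 and 8 of 14 lay higher in the 3 lines, and none passed. Skeletal muscle genes, a sign of adjoining tissue, had medians of 0.58, 1.58 and -0.56 over 12 genes, and their mean log2 level reached 8.20, 8.45 and 6.16 in labelled mutants and 5.60, 5.78 and 7.86 in wild types. Fat cell genes lay higher for 4, 5 and 4 of 5 (medians 0.16, 0.35 and 0.27) and erythroid genes for 3 of 4 in each line (medians 0.14, 0.67 and 0.73), none passing. With the skeletal muscle level as a covariate, the change of Ccl21a in the mean of the 3 lines was -1.36 (adjusted p = 0.00483). Within the lines it was -1.68, -1.41 and -0.99, none passing (adjusted p = 0.106, 0.964 and 0.362). In that fit the number of all probes passing in the mean went from 174 to 84. That fit used muscle genes alone, and no conclusion on adjoining tissue is drawn from it. Beyond it, the part of thymic epithelium, adjoining tissue, fat cells, blood and handling in the CCL21 changes was not tested.

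**Figure D4:**
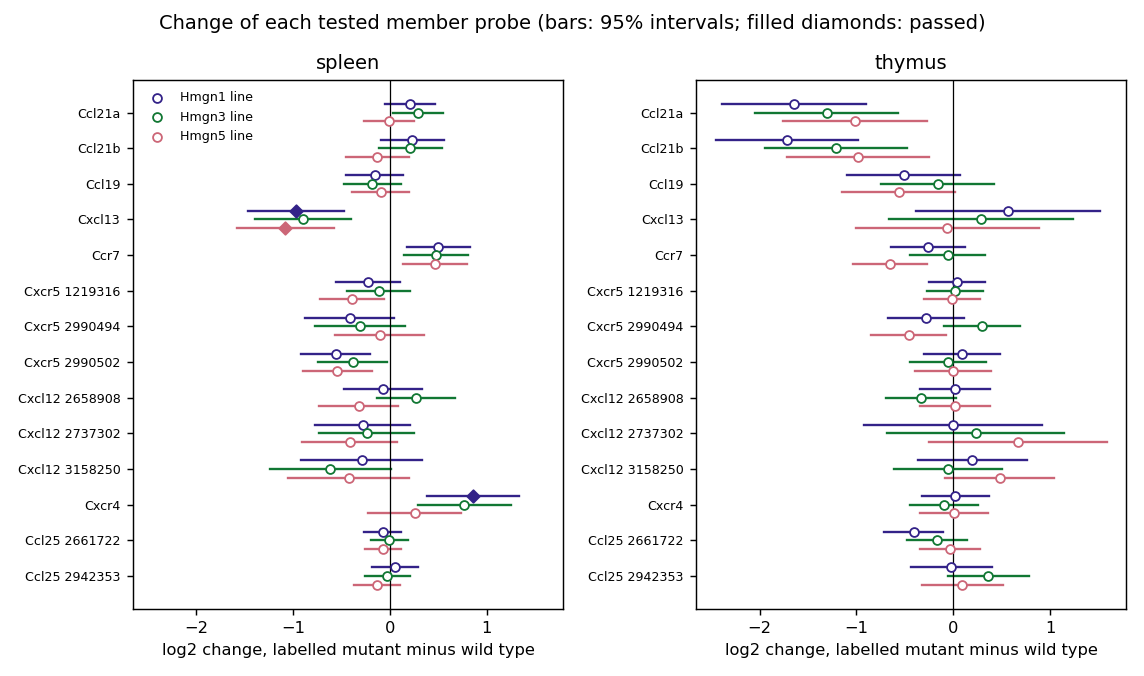
Change of each of the 14 tested member probes in spleen and thymus, as the difference of labelled mutants from wild types in log2(intensity + 16), in the Hmgn1, Hmgn3 and Hmgn5 lines. Bars are 95% intervals and filled diamonds mark probes that passed. In spleen the Cxcl13 intervals lie below 0 and the Ccr7 intervals above 0 in each line, and in thymus the Ccl21a and Ccl21b intervals lie below 0 in each line.

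In brain the CCL21 probes split the mice of the Hmgn5 line, and the split did not follow genotype. Ccl21a read 6.67, 248, 12.9 and 9.27 in wild types and 288, 281, 6.16 and 262 in labelled mutants. Thus 3 wild types and 1 labelled mutant lay near noise, and 1 wild type and 3 labelled mutants lay at 248 to 288. The change of 1.75 (SE 0.70) did not pass (adjusted p = 0.510). In the Hmgn3 line the wild types read 103, 104, 334 and 270 and the labelled mutants 331, 329, 365 and 527, and in the Hmgn1 line all 8 mice lay between 304 and 429. The Ccl21b and Ccl21c probes split the same mice, and over the 24 brain arrays, with group means taken off, Ccl21a correlated at r = 0.98 with each.

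In spleen the same mice of the Hmgn5 line read 2115, 2377, 2442 and 2157 (wild types) and 2412, 2366, 2216 and 2009 (labelled mutants) for Ccl21a, in the order of the brain values above. Each of the 8 spleens thus held a high level, whatever the brain of the mouse read. Genes that neighbour the CCL21 copies on chromosome 4 varied less in brain of the Hmgn5 line. The highest array was 1.26 times the lowest for Vcp, 1.28 times for Unc13b, 2.20 times for Ccl19 and 3.97 times for Cntfr, against 46.7 times for Ccl21a. The lowest Ccl21a array lay near noise, so the exact size of its ratio cannot be read.

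**Figure D5:**
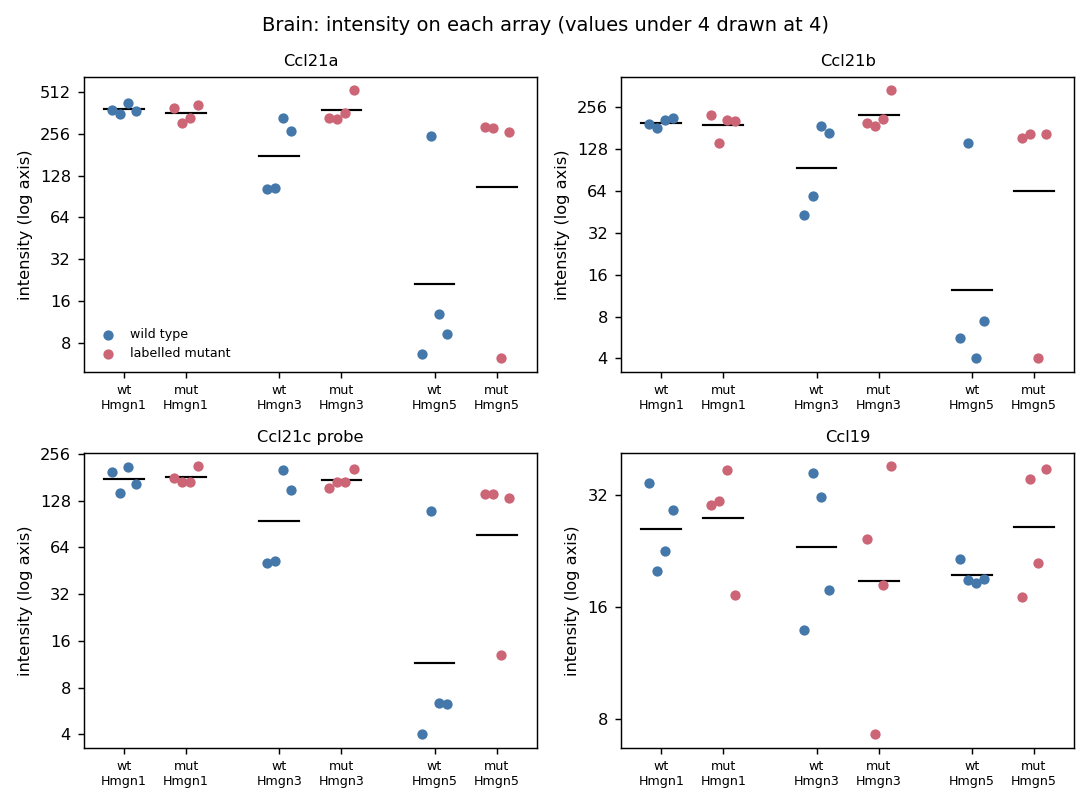
Brain intensity on each array (log axis) of Ccl21a, Ccl21b, the Ccl21c probe and Ccl19, with wild types in blue, labelled mutants in red and a line at the mean on the log scale of the 4 arrays of a group. Values under 4 are drawn at 4. In the Hmgn5 line the 3 CCL21 probes are near noise in 3 wild types and 1 labelled mutant, and Ccl19 does not separate these mice.

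No member passed in brain or liver. In brain 0 of 11 tested probes passed in each line (limma; 0, 0 and 3 at an unadjusted p under 0.05), against 0%, 0.0104% and 0.0208% of all probes. The groups did not overlap for 1 member, Ccr7 in the Hmgn5 line, with labelled mutants higher (2.52% of all probes). Its wild types were not above noise, at -0.53, -2.62, 3.14 and 2.74, and the labelled mutants read 5.88, 4.11, 3.56 and 17.3, at least 1.05-fold higher (adjusted p = 0.555).

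In liver 0 of 12 tested probes passed in each line (limma; 1, 1 and 3 at an unadjusted p under 0.05), against 0.0318%, 0% and 0.419% of all probes. Ccl19 lay lower in the Hmgn1 line, at 34.8, 36.0 and 38.6 in wild types and 23.0, 26.0, 30.2 and 25.5 in labelled mutants, without overlap (-0.32, SE 0.10, adjusted p = 0.359). That was the 1 member lower without overlap in the Hmgn1 line (3.54% of all probes). Among Hmgn5 mice Ccl19 lay the other way, at 28.4 ± 6.77 (n = 3) and 40.1 ± 4.61 (n = 4), with overlap (0.34, adjusted p = 0.177). The change of Ccl19 in liver differed most between lines among the members, and that difference did not pass (adjusted p = 0.172). Ccl25 by ILMN_2661722 was the 1 member lower without overlap in the Hmgn5 line (4.9% of all probes), at 54.7, 51.2 and 55.4 against 40.8, 44.8, 45.1 and 29.3 (-0.33, adjusted p = 0.346). The Cxcl12 probe ILMN_2737302 read 355 ± 23.5 (n = 3) and 281 ± 42.1 (n = 4) in that line, with overlap (-0.33, adjusted p = 0.250). In the Hmgn3 line ILMN_2658908 read 1964 ± 194 and 2307 ± 329 (n = 4 each, change 0.22, adjusted p = 1).

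Whether a change differed between the 4 tissues was tested line by line, in a fit that treats arrays of 1 mouse as correlated. In the Hmgn1 line it differed for Ccl21a (adjusted p = 0.00591) and Ccl21b (adjusted p = 0.00327), where 0.38% of all probes passed. The changes of Ccl21a were -1.65 in thymus, 0.21 in spleen and -0.09 in brain. In the Hmgn3 line it differed for Ccl21a and Cxcl13 (adjusted p = 0.0456 each), where 0.161% of all probes passed, and Ccl21b did not pass (adjusted p = 0.0659). There Ccl21a changed by -1.31 in thymus, 0.29 in spleen and 1.03 in brain, and Cxcl13 by -0.90 in spleen and 0.29 in thymus. Cxcl13 was above noise on 0 of 12 wild-type brain arrays, so its brain change was held near 0. Its result therefore rests in part on a tissue without signal. The brain change of Ccl21a drew on wild types that were themselves split, at 103, 104, 334 and 270. The labelled mutants there read 331, 329, 365 and 527. In the Hmgn5 line 0 members passed (limma), where 0.364% of all probes did, and Ccl21a and Cxcl13 had adjusted p-values of 0.337 and 0.596.

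The other genes of the pathway are given by list, beside the 3.08%, 2.06% and 0.9% of all probes that passed in spleen of the Hmgn1, Hmgn3 and Hmgn5 lines. In spleen 0 of 21 tested other chemokines passed in each line (limma). Of 15 other chemokine receptors, Ackr2, a decoy receptor that takes up inflammatory CC chemokines, fell in the Hmgn1 line from 83.0 ± 13.8 to 54.2 ± 11.6 (n = 4 each, -0.50, adjusted p = 0.0473). Gpr183, an oxysterol receptor that positions B cells in the outer follicle, fell in the Hmgn3 line from 198 ± 31.4 to 126 ± 19.2 (-0.59, adjusted p = 0.0267). Of 14 tested genes of the lymphotoxin and NF-kB list, 1 fell: Lta, which encodes lymphotoxin alpha, in the Hmgn1 line, from 35.0 ± 1.77 to 19.1 ± 7.73 (-0.56, adjusted p = 0.0321). The medians of that list were 0.07, 0.15 and 0.09 in the 3 lines. The calls of Ackr2, Gpr183 and Lta were not checked by leaving out arrays. Leaving out 1 array left as few as 9 of all probes passing in the Hmgn1 line and 8 in the Hmgn3 line.

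In thymus, where 0.0494% of all probes passed in the Hmgn1 line, 1 of 22 other chemokines did, Ccl5, which attracts effector T cells and monocytes and fell in the Hmgn1 line from 117 ± 41.8 to 39.4 ± 10.3 (n = 4 each, -1.23, adjusted p = 0.0117). The Ccl5 call was not checked by leaving out arrays either. The other chemokines had medians of -0.12, -0.08 and -0.24, with 14, 13 and 18 of the 22 lower. None of 13 other receptors or 15 genes of the lymphotoxin and NF-kB list passed there (limma), and in brain and liver none of the 3 lists had a gene that passed.

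Likeness between genes was described by Pearson's r over the 24 arrays of a tissue after group means were taken off, in spleen or, for Cxcr4 and Ccl25, in thymus. These arrays share mice and handling, and r is given as a description. The 3 genes most alike to Ccl21a were Ccl21b (0.89), Thoc5 (0.83) and Cd6 (0.81), and those most alike to Ccl21b were Thoc5 (0.89), Ccl21a (0.89) and Psmc3 (0.87). For Ccl19 they were Zfp182 (0.89), Dhx57 (0.78) and Ppp3cb (0.78), and for Cxcl13 Nsmaf (0.85), Pigp (0.84) and D6Wsu163e (0.84). For Cxcl12 they were Otud6b (0.77), P4ha1 (0.75) and Tsc22d1 (0.74). Among the receptors, Ccr7 was most alike to Parp3 (0.71), Tspan31 (0.68) and Tmem167 (0.67), and Cxcr5 to Tmem131, Fundc1 and Lrrk2 (0.91 each). In thymus Cxcr4 was most alike to Lyar (0.76), Trib3 (0.73) and Cxcl14 (0.72), and Ccl25 to Cep135 (0.88), Hhip (0.84) and Smim8 (0.84). Between members in spleen, Cxcl13 and Cxcr5 correlated at r = 0.76 by ILMN_2990502, 0.57 by ILMN_1219316 and 0.26 by ILMN_2990494, and Ccl21a and the bright Cxcl12 probe went apart (r = -0.78). Labelled mutant 3 of the Hmgn3 line stood low for that Cxcl12 probe (606) and had the highest Ccl21a of its group (2447). The correlation without it was not computed.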

How the data were processed

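The values are the authors' deposited intensities of 94 one-colour Illumina bead arrays with 25697 probes, made with GenomeStudio 2011.1 per the submitters' processing notes. They are linear and background-subtracted (19.1 to 29.1% of values on an array lie below 0), and from the values each line and tissue was normalized as a set of its own. No source used here names the method. The 188 columns of the non-normalized table match no label and were not used. No 2 arrays were identical (largest correlation 0.9974).

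Here negative values were set to 0 and log2(intensity + 16) was used. Tests took the probes above the noise limit on at least 3 arrays of a tissue. Groups came from the labels and were fitted in limma 3.58.1 (R 4.3.3), 1 fit per tissue over its 6 groups, with Benjamini-Hochberg adjustment at 0.05. For tissue levels the 46 wild-type arrays were quantile-normalized and fitted with line as a term and the mouse as a random block (consensus correlation -0.06). The fit was tested on simulated data. Symbols come from the platform annotation, which names 23978 probes. All members were named, with a change given where a probe passed, its groups did not overlap or its unadjusted p was under 0.05. For each member the 3 most alike genes were named, and of other pathway genes those that passed. Members, lists and tests were chosen with earlier results of these data known. Wild types and labelled mutants of equal replicate number were not treated as pairs, since in 0 of 12 sets were all pairs correlated above 0.1 (r from -0.45 to 0.48). That rule cannot show that single pairs share nothing. In spleen of the Hmgn1 line the pairs gave r of -0.15, 0.41, 0.48 and -0.21. The p-values set each difference against the spread between these samples within their groups. Litter and processing order were not part of the fits. Alternatives were another floor, other filters, array weights, replicate block and covariate, other normalizations, single lines and leaving out each array.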

Additional observations from a re-analysis of the deposited data

Results flagged for a closer look

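Of 221 groups of 4 arrays tested for 1 array apart from the rest, 12 had one, and chance flags about 1 in 20 groups. In brain of the Hmgn5 line these were Ccl21a in wild type 2, at 248 where the others read 6.67 to 12.9, and in labelled mutant 3, at 6.16 where the others read 262 to 288. Ccl19 stood apart in wild type 1 of the same tissue and line at 21.6 (others 18.6 to 19.1), in liver of Hmgn3 wild type 1 at 27.1 (19.97 to 20.97) and in thymus of Hmgn5 labelled mutant 2 at 13.8 (29.2 to 31.3).

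Spleen of Hmgn3 labelled mutant 3 was low for Cxcl12 by 3 probes, at 606 (others 1107 to 1155), 64.6 (197 to 230) and 33.2 (213 to 226). In brain of the Hmgn3 line Cxcl12 read 1314 by ILMN_2658908 in labelled mutant 4 (1018 to 1046) and 38.7 by ILMN_3158250 in wild type 4 (46.8 to 47.5). The Cxcr5 probe ILMN_2990494 read 76.8 in spleen of Hmgn5 wild type 1 (144 to 147), and Cxcr4 read 482 in thymus of Hmgn1 wild type 4 (338 to 356).

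The change differed between tissues by limma's F test for Ccl21a in the Hmgn1 line (adjusted p = 0.00591), for Ccl21b in the Hmgn1 line (adjusted p = 0.00327), and for Ccl21a and Cxcl13 in the Hmgn3 line (adjusted p = 0.0456 each). For Cxcl13 the test included brain, where 0 of 12 wild-type arrays were above noise.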

How the results depend on the processing

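The number of members passing in spleen depended on the settings. In the Hmgn1 line the 2 became 0 with a floor of 1 before log2, with the replicate number as a covariate, with quantile normalization over the 3 lines and with the line fitted alone, and 1 with no filter on dim probes, where Cxcl13 (0.0631) and Cxcr4 (0.0837) lost their calls and the 1 was Cxcl12 by ILMN_2746295, a probe at noise (-0.20, adjusted p = 0.0334). With array weights or the replicate block they became 3, with Cxcr5 by ILMN_2990502 added. In the Hmgn3 line the 0 became 1 with a stricter filter or array weights and 2 with the replicate block or the line alone. In the Hmgn5 line the 1 became 0 with the floor of 1, no filter or the covariate, and 2 with the replicate block. Leaving out 1 array gave 0 to 3, 0 to 1 and 0 to 2 in these lines. In the mean of the 3 lines the 4 in spleen ranged from 4 to 6 and the 2 in thymus stayed at 2, and the covariate left 0 in both. In thymus of the Hmgn1 line the 0 became 2 with array weights and 1 with the replicate block.

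Over all probes in spleen, the 572, 383 and 167 passing in the Hmgn1, Hmgn3 and Hmgn5 lines ranged from 9 to 1546, 8 to 720 and 8 to 415 on leaving out 1 array. With the replicate block they were 865, 599 and 423, with the covariate 0, 2 and 0, with the floor of 1 25, 41 and 48, and with the line alone 60, 100 and 150. The mean of the 3 lines gave 3203 in spleen (2708 to 3645) and 174 in thymus (68 to 245, and 64 with the block).

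The covariate, which is tied to genotype by its numbering, reversed Cxcl13 in spleen to 0.058 (Hmgn1), 0.13 (Hmgn3) and 0.045 (mean), and Cxcr5 by ILMN_2990502 to 0.11, 0.29 and 0.13 in the 3 lines and 0.18 in the mean. It reversed Cxcr5 by ILMN_1219316 to 0.058 (Hmgn5) and 0.21 (mean), and in thymus Ccl21b to 0.064 (Hmgn3) and 0.30 (Hmgn5), Ccl21a to 0.15 (Hmgn5) and Ccl19 to 0.18 (mean). For these reversals the cause was not tested. For single members, the other settings together with the covariate kept direction and side of the threshold for 336 of 380 values and reversed 13, and leaving out 1 array kept 607 of 636 and reversed 0.

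Between tissues, values as deposited reversed Cxcl12 by ILMN_2658908 to -0.32 (spleen minus brain), -1.78 (spleen minus liver) and -1.01 (thymus minus brain), which made 1 member lower in thymus than in brain where 0 were. They reversed ILMN_2737302 to -0.59 (thymus minus liver), and ILMN_2746295, at noise, to -0.0038, -0.0033 and -0.00045. For ILMN_2737302 in thymus minus liver, near 0 on the common scale, the floor of 1 gave -0.27, no mouse block -0.00092, the Hmgn5 line alone -1.44 and leaving out 1 mouse -0.10 to 0.37. The Hmgn5 line alone gave -0.15 for ILMN_3158250. In the Hmgn3 line alone spleen minus liver was -0.014 for ILMN_2658908, and thymus minus liver was -0.23 for Ccl19 and -0.11 and -0.0034 for Cxcr5. ILMN_3078973, at noise, ranged from -0.0098 to 0.0014 in spleen minus brain. Dim probes (Ccr7 in brain and liver, Ccl25 in spleen) lie too near noise for a fold change to be read.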
